A study of Mus musculus with 8 samples.

Results

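Hypoxia-inducible factors (HIFs) and their targets were followed in mouse oligodendrocyte progenitors, the dividing precursors of myelinating cells, kept at high or low glucose. The 9 genes were chosen by name from 56980 gene IDs in the deposited count table: the factor genes Hif1a and Epas1, the oxygen sensor genes Egln1 and Egln3, and the targets Vegfa, Adm, Bnip3, Ankrd37 and Ddit4, none of which is a glycolytic gene. All 9 were found by symbol and all 9 passed the filter on low counts. The cells were wild type, of strain C57BL/6, and came from the cortex of pups of postnatal day 6 to 8. They were captured with an antibody to PDGFRα after lectin dishes had removed microglia and endothelial cells. All cultures had 10 ng/mL PDGF-AA. The basic fibroblast growth factor used for expansion (20 ng/mL) was washed out beforehand, and the pups were of either sex. In the HG group glucose stayed at 25 mM. In the LG group medium exchanges brought it to 12.5 mM (day 1), then 5 mM (day 2), then 2.5 mM (day 3 onward). RNA was taken on day 5, and each group has 4 libraries, numbered 1 to 4. The comparison asks which transcripts differ at low glucose. The labels state no oxygen level for the cultures beyond humidified CO2 incubators.

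HIFs are transcription factors made of an oxygen-regulated alpha subunit, HIF-1α from Hif1a or HIF-2α from Epas1, and a stable partner, ARNT. In oxygen, prolyl hydroxylases such as those from Egln1 and Egln3 mark the alpha subunit, the VHL complex ubiquitinates it and the proteasome destroys it. When oxygen is short the subunit persists, enters the nucleus and binds DNA at a short core sequence. The regulation of the alpha subunits is therefore largely one of protein stability, which RNA counts do not measure. Egln3, Vegfa, Adm, Bnip3, Ankrd37 and Ddit4 are induced by hypoxia in many cell types, and in the oligodendrocyte lineage HIF activity is known to hold back maturation and to link progenitors to the growth of blood vessels.

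The HIF core sequence is ACGTG or GCGTG on either strand (CACGT or CACGC where it lies on the strand opposite to the one printed). It was searched in the 250 bases before each start site of the RefSeq promoters of GRCm38.p6. Of the 9 genes, 8 matched an entry and all 8 held the core at 1 start site or more, Vegfa at its second start site only. The window of that site (chr17:46025164-46025413) lies inside the annotated Vegfa gene. Its longest run outside annotated exons is 32 bases, with 0 matches. Over all 32851 promoters 38.6% held the core, and 63.8% of those with a GC content of at least 60% did. These shares are per promoter entry, while the 8 are counted per gene, with either start site of Vegfa allowed. The entries of Egln3 (50.8%), Adm (56.8%) and Vegfa (59.2% and 59.6%) had a GC content below 60%. Both strands were counted, so CACGTG counts once on each. The 4 stretches below are shown because they belong to the 3 genes with the highest fitted fold changes in LG (Ankrd37, Egln3 and Bnip3) and to the most abundant target (Ddit4). Each runs 5′ to 3′ on the strand of its gene, without bases that the annotation places in an exon, and capitals mark the core letters.
Egln3, chr12:54203875-54204124, minus strand: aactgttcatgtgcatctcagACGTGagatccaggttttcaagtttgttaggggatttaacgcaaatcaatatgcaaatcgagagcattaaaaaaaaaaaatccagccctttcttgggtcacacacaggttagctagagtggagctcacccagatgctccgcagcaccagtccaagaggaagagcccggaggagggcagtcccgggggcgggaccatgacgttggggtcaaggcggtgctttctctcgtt
Bnip3, chr7:138909520-138909756, minus strand: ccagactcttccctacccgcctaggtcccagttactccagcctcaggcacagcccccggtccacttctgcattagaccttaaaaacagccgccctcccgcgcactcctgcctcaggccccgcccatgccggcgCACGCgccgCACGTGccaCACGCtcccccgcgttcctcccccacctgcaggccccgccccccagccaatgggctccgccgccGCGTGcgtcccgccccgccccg
Ankrd37, chr8:45999868-46000100, minus strand: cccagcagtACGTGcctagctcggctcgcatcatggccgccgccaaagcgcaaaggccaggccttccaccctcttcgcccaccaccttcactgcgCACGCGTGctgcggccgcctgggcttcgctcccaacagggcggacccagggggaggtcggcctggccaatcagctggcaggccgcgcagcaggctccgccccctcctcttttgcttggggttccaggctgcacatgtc
Ddit4, chr10:59951835-59952020, minus strand: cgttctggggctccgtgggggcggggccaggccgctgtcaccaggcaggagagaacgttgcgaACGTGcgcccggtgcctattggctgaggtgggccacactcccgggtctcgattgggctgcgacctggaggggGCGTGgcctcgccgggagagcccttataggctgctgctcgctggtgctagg
The 4 genes differ in the number of matches in the full window, with 5 in Bnip3, 4 in Ankrd37, 2 in Ddit4 and 1 in Egln3. A match is a string of letters and does not show that a factor was bound.

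The HG libraries held 50864130 to 61915909 counts and the LG libraries 53869166 to 65733928, and no difference between the totals was detected by a two-sided exact permutation test (p = 0.543). The labels speak of independent preparations, yet libraries numbered 1 and 2 carry a shared code and those numbered 3 and 4 have a code each, so n = 4 counts libraries and not separate preparations, and p-values may partly measure technical spread. Same-numbered HG and LG libraries deviated together, and tests are given without and with the number as a block. Progenitor markers were abundant in the 8 libraries, with 10 of 10 tested and summed levels of 9151 to 12470 CPM (counts scaled to the library's normalized total). Endothelial and microglial markers summed to 2.17 to 5.98 CPM and 1.18 to 2.50 CPM, with Cdh5, Cldn5, Cx3cr1 and Itgam at 0 in the 8 libraries. Neuronal markers summed to 1019 to 1339 CPM, mostly Map2 (816.7 to 1011 CPM) and Gap43 (139.6 to 275.6 CPM). Astrocyte markers summed to 1798 to 1988 CPM in numbers 1 and 2 and to 689 to 853 CPM in numbers 3 and 4. Most of the sum in numbers 3 and 4 was Slc1a3 (199.0 to 242.1 CPM), Sox9 (209.5 to 317.7 CPM) and Aldoc (194.0 to 246.1 CPM).

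The levels of the 9 genes spanned a wide range and no member passed the test of LG against HG. Ddit4, Egln1 and Hif1a were abundant and close to constant. Egln3, Bnip3 and Epas1 were intermediate, while Vegfa, Adm and Ankrd37 were low. Per length of annotated exon, Ddit4 was highest at 70.1 ± 6.33 RPKM (CPM per kilobase; ± SD over 8 libraries), followed by Egln1 at 31.5 ± 0.985 RPKM and Hif1a at 27.1 ± 1.83 RPKM. The libraries of Ddit4 did not overlap with those of Egln1, and the lowest Egln1 library (30.34 RPKM) lay just above the highest of Hif1a (30.30 RPKM). Egln3 (5.49 ± 2.11 RPKM), Bnip3 (3.89 ± 0.429), Epas1 (2.15 ± 1.20), Vegfa (0.915 ± 0.528), Adm (0.456 ± 0.139) and Ankrd37 (0.452 ± 0.113) followed, and each of these overlapped with its neighbour in the order. These are levels in RPKM, while the values below are CPM, which may be compared between libraries and not between genes.

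**Figure D1:**
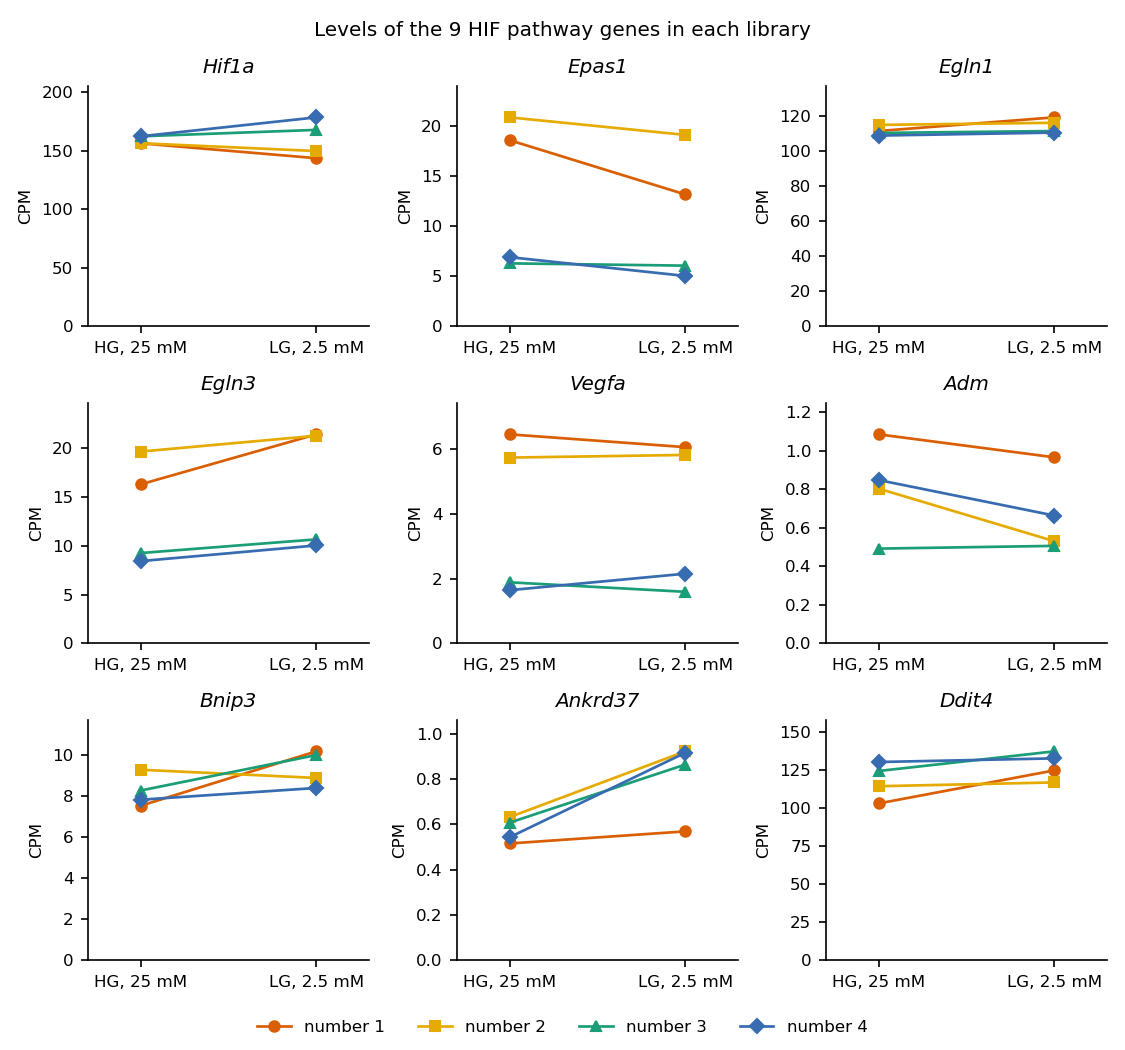
Levels in CPM (vertical axis, from 0) of each gene in HG and LG libraries, with lines joining libraries of the same number. Hif1a, Egln1 and Ddit4 sit in a narrow band, Epas1, Egln3 and Vegfa part numbers 1 and 2 from numbers 3 and 4 in both groups, and in no panel are the HG and LG libraries fully separated.

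In LG against HG, 0 of the 9 members passed by edgeR's quasi-likelihood test without the block, where 0.0% of 18905 genes passed. None had an unadjusted p under 0.05 there, against 3.94% of genes. With the block 0 of 9 passed, against 0.418% of genes, and 2 of 9 (Egln3 and Epas1) had an unadjusted p under 0.05, against 13.4% of genes. Adding GC and length offsets to the block gave 0 of 9 again, against 1.5% of genes. There 3 of 9 had an unadjusted p under 0.05 (Bnip3 besides those named), a count for which no share over all genes was taken. On counts summed per code 0 of 9 passed, against 0.0886% of genes. DESeq2 and limma-voom without the block called 0 of 9, against 0.0212% and 0.0% of genes. The HG and LG levels overlapped for 9 of 9 members, while 2.89% of genes had groups that did not overlap. The median log2 fold change of the members was 0.038 without the block and 0.037 with it, against 0.0051 and 0.0015 over all genes tested. With the block 7 of 9 were positive and with the offsets as well 5 of 9, against 50.4% and 52.5% of all genes. Within pairs of the same number, 4 of 9 members (Egln1, Egln3, Ankrd37 and Ddit4) were higher in LG in 4 of 4 pairs, against 10.8% of genes, and 1 of 9 (Epas1) was lower in 4 of 4, against 11.0%. These shares lie above the background in the upward direction, but the members were chosen with earlier results known and none passed the adjusted test. The pairs were compared without the GC and length offsets. With offsets and block, the log2 fold change of Egln1 was -0.039 and that of Ddit4 0.030. Pairs 1 and 2 also share a code.

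Of the factor genes, Hif1a encodes the broadly expressed HIF-1α and Epas1 the more restricted HIF-2α. Hif1a (ENSMUSG00000021109, chr12:73901375-73947530 of GRCm38, plus strand) was at 156.5, 156.6, 162.5 and 162.5 CPM in HG numbers 1 to 4 and at 144, 150, 168 and 179 CPM in LG. The HG libraries spanned a narrower range than the LG libraries and lay within it. Its pair differences were -0.12, -0.063, 0.049 and 0.14 on the log2 scale, so LG was lower in numbers 1 and 2 and higher in numbers 3 and 4. Without the block its log2 fold change was 0.0051 (SE 0.080, edgeR adjusted p = 0.9999). With the block its 95% interval ran from -0.13 to 0.13, and with GC and length offsets as well the value was 0.092 (edgeR adjusted p = 0.448). The antisense gene Gm15283 shares exonic bases with it and had 18 to 53 counts per library, against 7583 to 12104.

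Epas1 (ENSMUSG00000024140, chr17:86753700-86833410, plus strand) was at 18.6, 20.9, 6.29 and 6.91 CPM in HG and at 13.2, 19.1, 6.06 and 5.03 CPM in LG. Numbers 1 and 2 were high in both groups, and the LG library was below its HG partner in every pair, by 0.50, 0.13, 0.053 and 0.45 on the log2 scale. The log2 fold change was -0.28 with and without the block, with an SE of 0.560 without it and 0.097 with it. With the block the 95% interval was -0.50 to -0.070 and the edgeR adjusted p was 0.240, or 0.126 with GC and length offsets as well, so it did not pass. In the fits without the block it ran from -0.70 without LG number 2 to 0.057 without HG number 2.

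The prolyl hydroxylase genes encode PHD2 (Egln1), the main sensor that sets HIF levels in normal oxygen, and PHD3 (Egln3), which is itself a HIF target. Egln1 (ENSMUSG00000031987, chr8:124908587-124949324, minus strand) was at 112, 115, 111 and 109 CPM in HG and at 119, 116, 112 and 111 CPM in LG, with the smallest SD of the 9 relative to its mean over the 8 libraries. The LG library was slightly above its partner in 4 of 4 pairs, with a log2 fold change of 0.037 with the block (95% interval -0.081 to 0.16, edgeR adjusted p = 0.804). With GC and length offsets and the block it turned to -0.039.

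Egln3 (ENSMUSG00000035105, chr12:54178981-54203860, minus strand) was at 16.3, 19.6, 9.24 and 8.42 CPM in HG and at 21.4, 21.2, 10.6 and 10.0 CPM in LG. Numbers 1 and 2 were again high, and LG exceeded HG in 4 of 4 pairs, by 0.39, 0.11, 0.20 and 0.25 on the log2 scale. With the block the log2 fold change was 0.24 (SE 0.079, 95% interval 0.067 to 0.42), the lowest p of the 9 in that fit, at an edgeR adjusted p of 0.224. Adding the offsets to the block gave 0.21 (edgeR adjusted p = 0.194), so it did not pass there either. Without the block it ran from 0.063 without LG number 1 to 0.50 without HG number 2.

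Among the secreted targets, Vegfa encodes the vascular endothelial growth factor and Adm the vasodilator peptide adrenomedullin. Vegfa (ENSMUSG00000023951, chr17:46016993-46032369, minus strand) was at 6.46, 5.74, 1.89 and 1.65 CPM in HG and at 6.07, 5.83, 1.60 and 2.16 CPM in LG. The group means were 3.93 ± 2.52 CPM and 3.91 ± 2.36 CPM (SD, n = 4), so the spread within a group far exceeded the difference. LG was higher in 2 of 4 pairs, and the block gave a log2 fold change of 0.016 (95% interval -0.28 to 0.32, edgeR adjusted p = 0.972). Leaving out 1 library without the block moved it between -0.30 (LG number 1) and 0.34 (HG number 1).

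Adm (ENSMUSG00000030790, chr7:110627661-110629820, plus strand) was at 1.09, 0.804, 0.493 and 0.849 CPM in HG and at 0.967, 0.531, 0.507 and 0.664 CPM in LG, which rests on 27 to 59 counts per library. LG was lower in 3 of 4 pairs and the groups overlapped over most of their range. The log2 fold change was -0.28 without the block (edgeR adjusted p = 0.9999) and -0.27 with it (95% interval -0.81 to 0.26), so the interval spans 0.

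Bnip3 encodes a mitochondrial receptor that recruits the autophagy machinery to mitochondria. It lies at chr7:138890836-138909519 (minus strand, ENSMUSG00000078566). It was at 7.55, 9.30, 8.29 and 7.84 CPM in HG and at 10.2, 8.90, 10.0 and 8.41 CPM in LG. LG was higher in 3 of 4 pairs and slightly lower in pair 2, and 2 LG libraries (numbers 1 and 3) lay above every HG library. The log2 fold change with the block was 0.19 (SE 0.100, edgeR adjusted p = 0.452), and adding the offsets gave 0.26 (edgeR adjusted p = 0.277). Its count is uncertain: transcripts of 5 other genes matched its own at 95% identity or more over at least 150 bases, and among them the pseudogene Gm6532 had 56 to 103 counts and the noncoding AC160336.1 36 to 84, against 410 to 570 for Bnip3.

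Ankrd37 encodes a small ankyrin repeat protein whose transcript is a sensitive marker of HIF-1 activity in several cell types. It lies at chr8:45996902-46005707 (minus strand, ENSMUSG00000050914). It was at 0.515, 0.632, 0.607 and 0.543 CPM in HG and at 0.569, 0.921, 0.863 and 0.915 CPM in LG. Numbers 2, 3 and 4 of LG lay above every HG library, and LG number 1 lay among the HG libraries. It had the highest fitted log2 fold change of the 9, at 0.51 without the block (SE 0.237, 95% interval -0.019 to 1.04, edgeR adjusted p = 0.9999) and 0.50 with it (edgeR adjusted p = 0.414). These values rest on 28 to 37 counts in HG libraries and 30 to 62 in LG libraries. Exons of 2 genes on the opposite strand overlap it, Lrp2bp with 31 to 85 counts and Ufsp2 with 1717 to 2129, and without a stated strand setting their reads cannot be told apart from its own. Both had log2 fold changes below 0 with the block, at -0.30 for Lrp2bp and -0.094 for Ufsp2.

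Ddit4 encodes REDD1, which restrains mTORC1 through the TSC complex and is induced by hypoxia, glucocorticoids and energy stress. It lies at chr10:59949669-59951834 (minus strand, ENSMUSG00000020108). It was at 103, 114, 124 and 130 CPM in HG and at 125, 117, 137 and 133 CPM in LG. LG was above its partner in 4 of 4 pairs, by 0.28, 0.031, 0.14 and 0.027 on the log2 scale. In both fits the log2 fold change was 0.12, with an SE of 0.089 when the block was left out (95% interval -0.082 to 0.31) and of 0.061 when it was included (edgeR adjusted p = 0.430). Adding the offsets to the block gave 0.030 (edgeR adjusted p = 0.836). Ddit4 has the most GC-rich transcript of the 9, at 57.9% GC, while those of Hif1a and Bnip3 are at 41.3% and 41.6%.

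**Figure D2:**
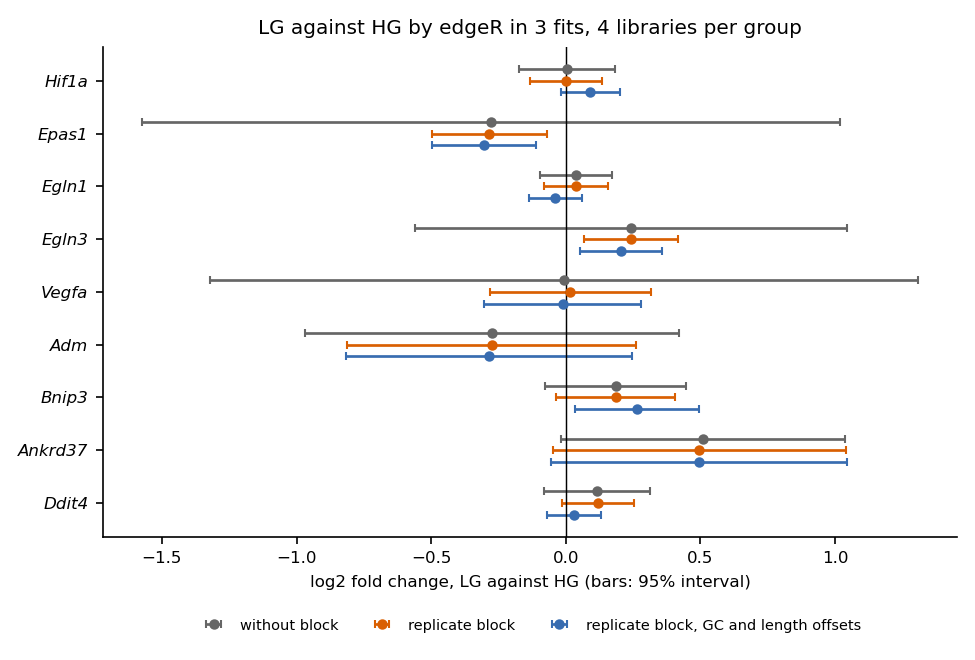
Log2 fold change of LG against HG (horizontal axis) for each gene in edgeR fits without the block, with it, and with GC and length offsets as well; bars are 95% intervals, not adjusted for the number of genes. The block narrowed the intervals most for Epas1, Egln3 and Vegfa, and the intervals with the block leave out 0 for Epas1 and Egln3, whose adjusted p-values were 0.240 and 0.224.

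The libraries also differed by number. Epas1, Egln3 and Vegfa were at least 2-fold higher in numbers 1 and 2 than in numbers 3 and 4, with no overlap, which holds for 3 of 9 members against 3.68% of genes, and no member was at least 2-fold lower, against 0.603% of genes. Since 1 code stands against 2, this is a description with no test. Vegfa was at 6.02 ± 0.322 CPM in numbers 1 and 2 and 1.82 ± 0.257 CPM in numbers 3 and 4 (SD, n = 4 libraries of both groups), a ratio of 3.31, which was 3.45 within HG and 3.17 within LG. Epas1 had a ratio of 2.95 (2.99 within HG and 2.91 within LG) and Egln3 one of 2.05 (2.03 and 2.06). The ratios within HG and within LG were thus close to each other for the 3 genes. The other 6 members had ratios from 0.875 (Ddit4) to 1.35 (Adm), with Egln1 at 1.05 and Bnip3 at 1.04. Hif1a did not overlap between the numbers either, at a ratio of 0.903. The order of Egln3 and Bnip3 by length-scaled level differed, with Egln3 at 7.37 against 3.97 RPKM in numbers 1 and 2 and at 3.60 against 3.82 RPKM in numbers 3 and 4.

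Astrocyte markers moved with the same parting. Of 10 members tested 8 were at least 2-fold higher in numbers 1 and 2 with no overlap, among them the gap junction gene Gja1 (88.0 to 106 CPM against 2.38 to 4.15 CPM), the water channel gene Aqp4 (105 to 114 against 2.82 to 6.38 CPM) and Gfap (64.9 to 81.9 against 2.14 to 5.84 CPM). The exceptions, Sox9 and Aldoc, had ratios of 1.12 and 1.49. Over all genes tested, 3.68% were at least 2-fold higher in numbers 1 and 2 without overlap, and 0.603% at least 2-fold lower. Of the progenitor markers, Sox10 and Gpr17 were at least 2-fold lower there, with ratios of 0.428 and 0.465. The neuronal marker Gad1 was higher there, at 2.43 to 3.80 CPM against 0.933 to 1.41 CPM, the only 1 of 7 tested neuronal markers past 2-fold without overlap. The mural marker Pdgfrb was at 3.13 to 5.52 CPM against 0.153 to 0.225 CPM, and the summed mural and fibroblast markers were at 4.95 to 7.72 against 2.29 to 2.55 CPM. Most of the sum in numbers 1 and 2 was Pdgfrb. The other tested markers of that list had ratios below 1 (Acta2 0.695, Col1a1 0.838, Rgs5 0.934 and Myh11 0.949). Endothelial markers summed to 2.17 to 3.36 CPM in numbers 1 and 2 and to 4.02 to 5.98 CPM in numbers 3 and 4. Most of that sum was 1 gene, Vwf, at 1.75 to 2.90 CPM against 3.79 to 5.46 CPM, and 2 of the 10 endothelial markers passed the filter on low counts. Some markers also differed by glucose level within pairs. In all 4 pairs the LG library exceeded its partner for Gpr17 and C1ql1, both of the progenitor list, which passed once offsets were added to the block (0.35 and 0.33, edgeR adjusted p = 0.0135 and 0.0114), though not with the block alone (adjusted p = 0.0523 for both). Of the other progenitor markers, Sox10 was above its partner in all 4 pairs and Pdgfra, Ptprz1 and Vcan below, and none of these 4 passed. LG was also above HG in all 4 pairs for Aldh1l1 and Fgfr3 of the astrocyte list and for Pdgfrb. None of them passed, at 0.34, 0.34 and 0.44 with the block (edgeR adjusted p = 0.102, 0.103 and 0.360). Gjb6, with 0 to 21 counts per library, was also above in all 4 pairs, at 0.34 with the block, and did not pass (edgeR adjusted p = 0.842). The neuronal markers Tubb3 and Gad1 were above HG in all 4 pairs too, and Gap43 and the mural marker Rgs5 were below in all 4. None of these passed. Slc1a2, Slc1a3 and Sox9 of the astrocyte list were above HG in 1 of 4 pairs. Over all genes tested, 10.8% were higher and 11.0% lower in LG in 4 of 4 pairs. The part of other cell types in the levels of Epas1, Egln3 and Vegfa was not tested. In bulk RNA, fewer cells of a type and less RNA per cell cannot be told apart.

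**Figure D3:**
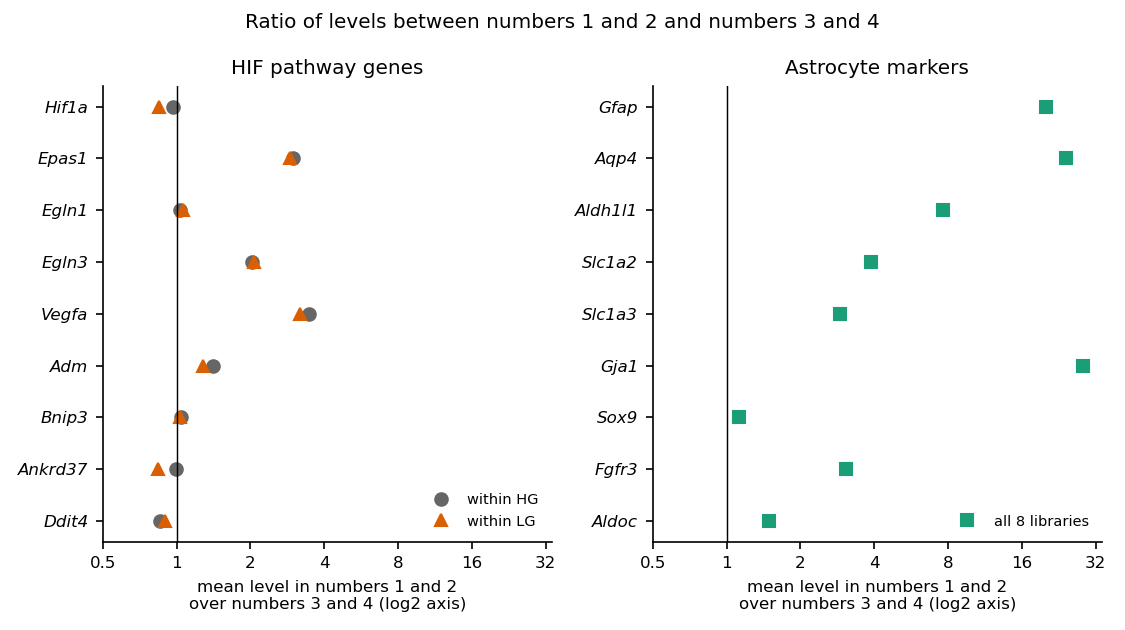
Mean level in numbers 1 and 2 divided by that in numbers 3 and 4 (horizontal axis, log2 scale), for the 9 genes within HG (circles) and within LG (triangles) and for astrocyte markers over the 8 libraries (squares; Gjb6, at 0 in 3 libraries, is not drawn). Epas1, Egln3 and Vegfa lie between 2.03 and 3.45, and the other 6 genes lie between 0.838 (Ankrd37 within LG) and 1.41 (Adm within HG).

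Likeness of pattern was measured by Pearson's r of log2 CPM over the 8 libraries, among genes with a mean of at least 1 CPM. Closest to Vegfa were Magt1 (r = 0.995) and Lipg (r = 0.994), closest to Epas1 Tgfb2 (r = 0.990) and Mapk4 (r = 0.987), and closest to Egln3 Boc (r = 0.997) and 2810459M11Rik (r = 0.994). Libraries of a shared code enter as separate points, and numbers 1 and 2 lay apart from numbers 3 and 4 for these 3 members. For Ddit4 they were Ext2 and Cxxc1 (r = 0.992 and 0.991), for Egln1 Agpat3 and Hacd3 (0.987 and 0.983), for Hif1a Gm45605 and 2010111I01Rik (0.972 and 0.965), for Bnip3 Pnpla7 and Gosr2 (0.964 and 0.962) and for Ankrd37 Slc25a35 and Rab34 (0.950 and 0.920). These names describe patterns only, and nothing was tested on them.

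The rest of the pathway was read from lists of genes that are no members. Of the 16 tested genes of the HIF machinery (partners, sensors, degradation complex and coactivators) 0 passed by edgeR with or without the block. Without the block 2 had an unadjusted p under 0.05 and with it 3, against 3.94% and 13.4% of all genes. In both fits 10 were positive, against 51.4% (no block) and 50.4% (block) of all genes, with a median of 0.035 with the block. The most abundant per length were Elob (91.4 RPKM) and Rbx1 (31.5 RPKM), subunits of the VHL ligase, and Arnt2 (30.2 RPKM), a neural paralog of Arnt, with log2 fold changes of 0.13, 0.077 and 0.030 with the block and 0.066, 0.14 and 0.025 when the offsets were added. Vhl, which encodes the subunit that recognises the hydroxylated factor, averaged 84.5 ± 5.69 CPM over the HG libraries and 95.9 ± 5.13 CPM over the LG libraries (SD, n = 4), a log2 fold change of 0.18 (edgeR adjusted p = 0.267 with the block). Hif3a, the third alpha subunit gene, averaged 0.285 ± 0.141 CPM over the HG libraries and 0.115 ± 0.069 CPM over the LG libraries, was lower in LG in 4 of 4 pairs, with 2 to 24 counts per library, and did not pass (log2 fold change -1.31, edgeR adjusted p = 0.265 with the block). Vhl and Hif3a were chosen after their values were seen.

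Of 36 other non-glycolytic HIF targets 29 were tested and 0 passed in either fit by edgeR. At an unadjusted p under 0.05 were 7 in the fit with the block and 2 in the other, against 13.4% and 3.94% of all genes. With the block 18 were positive and 11 negative, where 50.4% of all genes were positive, and the median was 0.066. The most abundant were Mif, a cytokine gene (177 RPKM, log2 fold change 0.17), Wsb1, an E3 ligase subunit gene (33.5 RPKM, -0.063), and Fam162a (32.5 RPKM, -0.037). Adding the offsets gave 0.11, -0.010 and 0.021, so that of Fam162a turned. Of the 7 that were not tested, Epo and Pdgfb were at 0 in the 8 libraries, and Car9, which encodes a carbonic anhydrase widely used as a hypoxia marker, had 0 to 4 counts. At least 2-fold higher in numbers 1 and 2 without overlap were 4 of the 29, against 3.68% of all genes. These were Ppp1r3c, Angptl4, Car12 and Ak4, at ratios of 4.94, 8.07, 2.27 and 2.17. Angptl4 and Car12 had at most 40 and 31 counts per library. Of the 20 glycolytic HIF targets 0 passed in either fit, 0 had an unadjusted p under 0.05, and Gapdh, Pgk1 and Pgam1, the most abundant, were at 0.12, 0.030 and 0.0096 with the block and 0.072, 0.018 and -0.032 when the offsets were added. The median of these 20 was 0.064 with the block, and adding the offsets brought it to 0.017. With the block 17 of the 20 were positive and with the offsets added 12, against 50.4% and 52.5% of all genes. Of the 20, 1 was at least 2-fold higher in numbers 1 and 2 without overlap, against 3.68% of all genes. It was Pfkfb3, which makes an activator of glycolysis, at a ratio of 2.13.

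The genes that receive or share the members' signals did not pass either. Of the 14 other VEGF and adrenomedullin genes 11 were tested and 0 passed by edgeR in either fit. At an unadjusted p under 0.05 there was 1 in each, against 13.4% of all genes with the block and 3.94% without it. Vegfb (32.8 RPKM), a VEGF family ligand, was at 0.22 with the block, Calcrl (16.8 RPKM), the adrenomedullin receptor gene, at -0.12, and Ramp2 (2.87 RPKM), its accessory protein gene, at 0.15. With the offsets added Vegfb was at 0.13, Ramp2 at 0.073 and Calcrl at -0.00046. The VEGF receptor genes Kdr and Flt1 were at 73 to 239 and 0 to 6 counts per library. Of the 11 tested, 1 was at least 2-fold higher in numbers 1 and 2 without overlap, against 3.68% of all genes. It was Kdr, at a ratio of 2.28. All 10 mitophagy genes were positive in both fits, where 51.4% (no block) and 50.4% (block) of all genes were, and 0 passed by edgeR in either. At an unadjusted p under 0.05 there were 5 with the block and 2 when it was left out, against 13.4% and 3.94% of all genes. The median of the 10 was 0.16. Among them Sqstm1 was at 0.17, Fkbp8 at 0.19 and Pink1, which encodes the kinase that marks damaged mitochondria, at 0.28 (edgeR adjusted p = 0.169). The offsets lowered these to 0.11, 0.088 and 0.17, and the median of the 10 to 0.12. Of 13 genes on the Ddit4 side, its paralog, TSC, mTORC1 and the sestrins, 11 were positive and 0 passed in either fit. Of all genes 51.4% (no block) and 50.4% (block) were positive. At an unadjusted p under 0.05 were 2 in the fit with the block and 0 in the other, against 13.4% and 3.94% of all genes. Sesn2, Sesn3 and Akt1s1, the most abundant, were at 0.0645, 0.050 and 0.14 with the block and at -0.033, 0.15 and 0.032 with the offsets added, so that of Sesn2 turned.

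**Figure D4:**
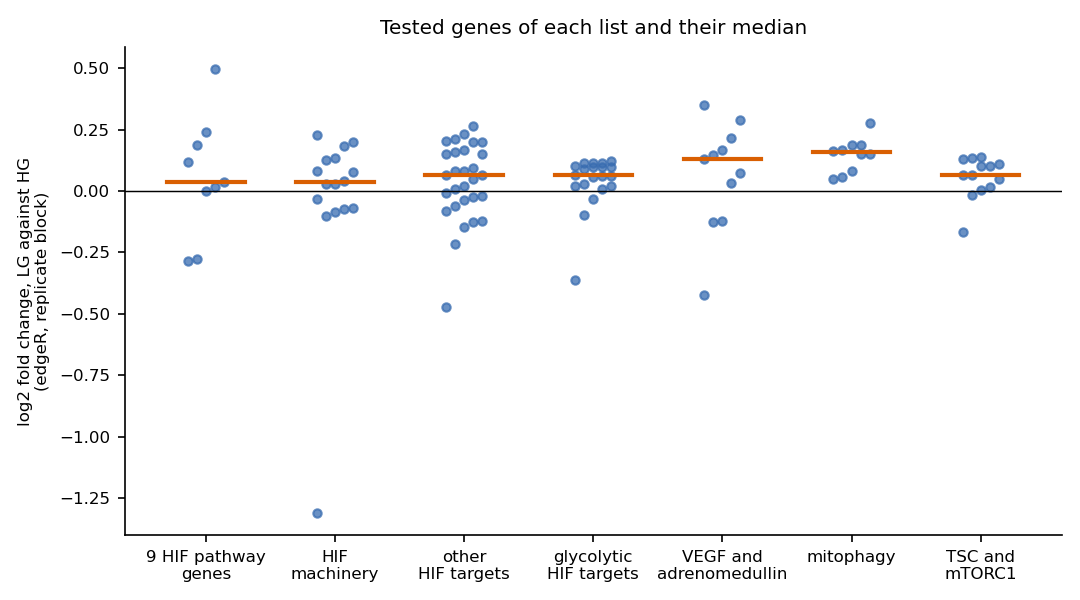
Log2 fold change of LG against HG with the replicate block (vertical axis) for every tested gene of the 9 and of 6 related lists; orange bars are medians. The medians lie between 0.035 and 0.16, no point passed the adjusted test, and the lowest point, at -1.31, is Hif3a with at most 24 counts per library.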

How the data were processed

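The authors deposited raw counts per Ensembl gene for the 8 libraries, whole numbers with no normalization. Per the submitters' processing notes, the tools were CASAVA 1.8.2, STAR, DESeq2 and featureCounts and the build was mm10, without saying what each did. No source used here states the annotation release, the strand setting or how multimapping reads were handled. Library totals lie above the read depth that the labels' protocols state, and whether a count is a read or a read pair is not given in the sources used here, so the counting precision of low genes may be overstated. Libraries were made from 100 ng RNA and read as 150 bp pairs, per the labels' protocols. Symbols, positions, exon lengths and GC content came from GENCODE M21 (GRCm38), where 52073 of 56980 IDs had a symbol. Tests used edgeR 4.0.16 in R 4.3.3: filterByExpr (18905 genes), TMM, the robust quasi-likelihood test and Benjamini-Hochberg adjustment over all genes at 0.05. CPM use the TMM factors, log2 CPM a prior count of 2, and an SE is the absolute log2 fold change over the square root of F. The offsets take out, library by library, the smooth dependence of log2 counts on GC and on length (mgcv 1.9.3; 97.5% of tested genes had both values). DESeq2 1.42.0 and limma 3.58.1 were alternatives, and the scripts were tested on simulated counts. Deviations from the group means correlated at r from 0.448 to 0.625 between same-numbered HG and LG libraries and at most 0.419 between other numbers (across genes, not independent points). Since each number also has 1 code in both groups of the labels, the numbers were taken as pairs. Numbers 1 and 2 share their code, so for them the code alone does not say which HG and LG libraries go together.

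The 9 members, the gene lists and the alternatives were chosen with earlier results of these data known. Named are all members and, from each list, genes that passed in the fit without or with the block (0 did) and the 3 with the highest RPKM, with the 2 genes most like each member (those of Adm are not reported here). In the marker lists these 3 were, by RPKM, Olig1, Olig2 and Gpr17 for progenitors, Aldoc, Sox9 and Slc1a3 for astrocytes, Gap43, Map2 and Tubb3 for neurons, Vwf, Esam and Pecam1 for endothelium, Cd68, P2ry12 and Aif1 for microglia and Acta2, Pdgfrb and Myh11 for mural cells and fibroblasts. Other names were chosen after their values were seen.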

Additional observations from a re-analysis of the deposited data

Results flagged for a closer look

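Each group of 4 libraries was searched for a library far from the other 3, for the members and the named genes of the lists. Of 90 groups searched 1 stood out, against 4.5 that chance gives at 1 in 20. Ankrd37 was at 0.569 CPM in LG number 1, below the 0.863 to 0.921 CPM of the other LG libraries and among the HG libraries, which were at 0.515 to 0.632 CPM.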

How the results depend on the processing

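Under 23 alternatives the number of the 9 members that passed was 0, as in the fit without the block; in the fit that required 1 CPM in 4 libraries Adm and Ankrd37 were not tested, and the other 7 did not pass. Over all genes the number that passed was 0 without the block, 79 with the replicate block, 1 with the preparation block (the shared code in place of the number), 17 on counts summed per code with the code as block, 284 with the replicate block and GC and length offsets, and 4 by DESeq2. With the replicate block and 1 pair left out it was 6, 0, 39 and 148 on leaving out pairs 1, 2, 3 and 4 in turn, and it was 0 with each single library left out. The block changed no call of a member. The sign of 5 members (Egln3, Adm, Bnip3, Ankrd37 and Ddit4) held under every alternative that tested them, and that of 4 turned. Vegfa, at -0.0070 without the block, was at 0.016 with the replicate block, 0.016 with the preparation block, 0.039 on summed counts, 0.047 by limma-voom and 0.091 without the code shared by numbers 1 and 2, and ran from -0.30 to 0.34 with 1 library left out and from -0.091 to 0.081 with the replicate block and 1 pair left out (0.058, 0.016 and 0.081 on leaving out pairs 1, 2 and 3). Egln1 turned with the offsets, to -0.040 without the block and -0.039 with it. Hif1a ran from -0.052 to 0.053 with 1 library left out and was at -0.016 and -0.046 with the replicate block without pairs 3 and 4. Epas1 ran from -0.70 to 0.057 with 1 library left out. The cause of these turns was not tested. The ratio between numbers 1 and 2 and numbers 3 and 4, with alternatives chosen after seeing the data, ran with 1 pair left out from 2.61 to 3.29 for Epas1, 1.97 to 2.13 for Egln3 and 3.17 to 3.46 for Vegfa, and that of Hif1a went from 0.903 to 0.819 with the GC and length trend removed. The p of the library totals ran from 0.314 to 0.914 with 1 library left out. Adm and Ankrd37 rest on 62 counts per library or fewer.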
